A study of Bos taurus with 8 samples.

Results

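The transcripts described here belong to 48 genes that carry out DNA replication and mitosis, and they were followed in day 15 bovine conceptuses with and without added growth factors. They were taken by gene symbol from the deposited table of 15267 genes, which listed all 48. Of these, 24 act at the G1/S transition or in DNA replication and 24 act in G2 and mitosis, and the groups of 24 are described apart. Each sample was a conceptus-half of cattle (Bos taurus) at the filamentous stage, on day 15, from embryos developed in vitro. FGF2, LIF and IGF1 were added for 4 samples (FLI), and 4 samples without the added factors served as controls. The time of this addition relative to sampling is not given here. The labels name no other allele, agent or strain for either group. The title of the series concerns slow-rate freezing, and no label says which samples came from frozen embryos. The samples are called by their titles, control 10, 20, 3M and 4M and FLI 20, 3M, 4M and 50. Conceptuses of this stage hold trophoblast, hypoblast and epiblast cells together, so fewer cells of a type and less RNA per cell cannot be told apart. No label says whether the samples came from separate animals or cultures, so the p-values measure only the spread between these samples.

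Cells commit to division when D-type cyclins with CDK4, and then E-type cyclins with CDK2, release E2F factors that switch on the genes of DNA synthesis. The MCM helicase, which is loaded at origins before S phase, is then fired, and enzymes such as ribonucleotide reductase supply the nucleotides. Later in the cycle FOXM1 and the MYBL2 complex switch on the genes of G2 and mitosis, which build the spindle, check kinetochore attachment and trigger anaphase. FGF2, LIF and IGF1 signal through receptors that are known in many cell types to reach D-type cyclins, and the filamentous conceptus is a tissue in which the trophoblast lengthens rapidly.

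The libraries held 108851495 to 152570016 reads assigned to genes, so that 1 read stood for 0.00646 to 0.00987 CPM, the reads of a gene relative to a library total that the authors scaled with TMM factors. The 10 most abundant genes took 8.40 to 12.9% of the reads of a library and mitochondrial genes 3.21 to 6.68%. Control 10 and FLI 20 were most often the extreme libraries for the genes described below. FLI 20 had the lowest level of 19 members and the highest of 7, and control 10 had the lowest of 11 and the highest of 11. Control 4M had the lowest level of 1 member and the highest of 12, and FLI 3M the lowest of 10 and the highest of 2. The shares of all tested genes for which these libraries were extreme were not counted.

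All 48 genes were transcribed in every sample, with 76 to 97679 reads per gene and library, and all 48 passed the filter of at least 1 CPM in at least 4 samples. Per kilobase of exon the median of the 48 was 35.4 CPM per kb, against 10.2 CPM per kb for the 11897 genes that passed this filter. Levels of 42 genes were above the median of all tested genes and those of 9 were above the 90th percentile. RRM2, the small subunit of ribonucleotide reductase, had the highest level at 151 CPM per kb. MYBL2, a transcription factor of late S phase and G2, followed at 118 CPM per kb, and CCNB1, the cyclin that drives entry into mitosis, at 111 CPM per kb. PCNA, the sliding clamp of the DNA polymerases, had 92.8 CPM per kb, and the helicase subunits MCM5 and MCM7 had 88.4 and 85.8 CPM per kb. The lowest level was that of E2F2, an activator E2F, at 0.476 CPM per kb. Most of the 48 genes differed less than 2-fold between samples. The coefficient of variation over the 8 samples had a median of 16.7% for the 48 genes, from 7.01% for TPX2, a spindle assembly factor, to 59.5% for CCND2, a D-type cyclin, against a median of 22.7% for all tested genes. For 39 of the 48 the highest sample was less than 2-fold above the lowest. The share of all tested genes with so narrow a range was not counted. The coefficients of variation were compared without matching the genes for level.

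**Figure D1:**
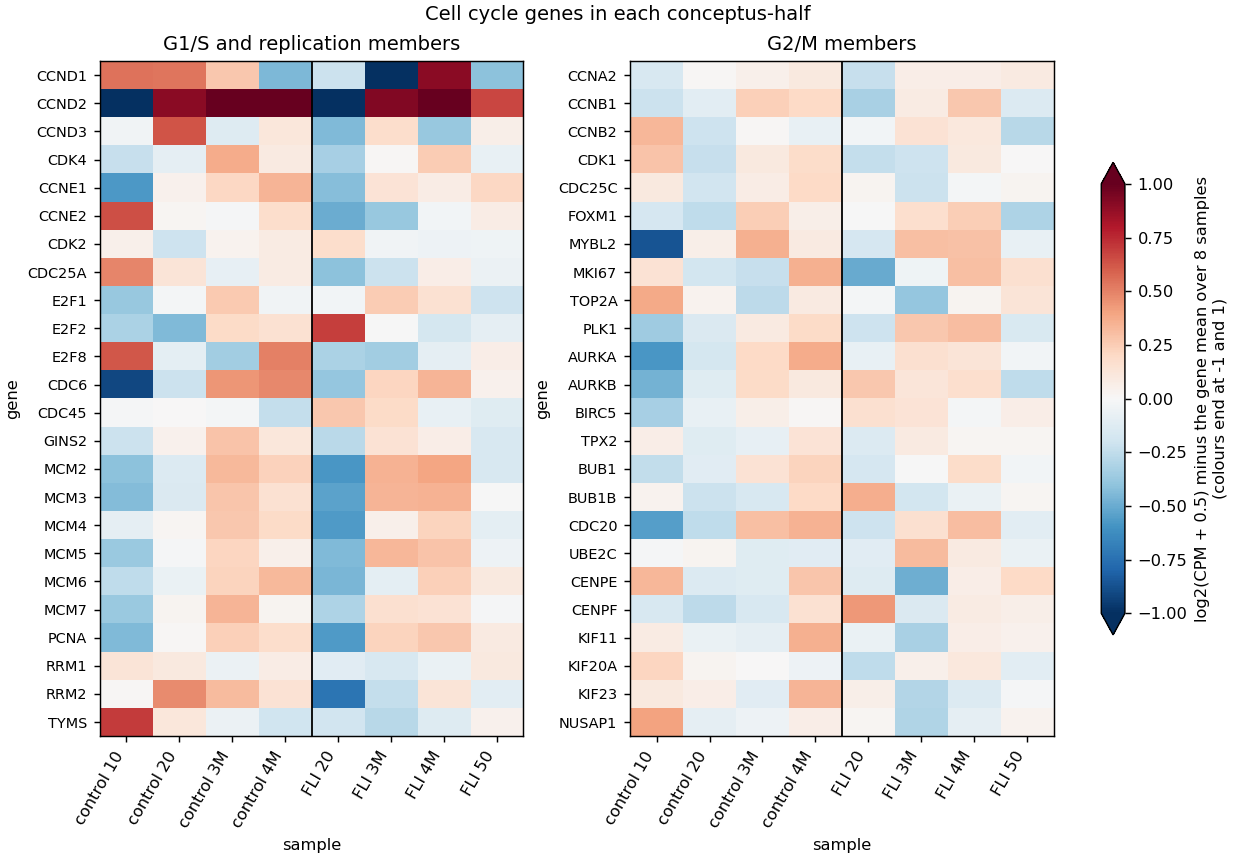
Level of each of the 48 genes (rows) in each of the 8 samples (columns), as log2(CPM + 0.5) minus the mean of the gene, with colours ending at -1 and 1. The columns do not divide at the line between control and FLI samples, and MCM2, MCM3, MCM5 and PCNA are blue in control 10 and FLI 20 and red in the samples 3M and 4M of both groups.

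None of the 48 genes differed between FLI and control in limma, which was fitted to all tested genes with Benjamini-Hochberg adjustment at 0.05, and the smallest adjusted p among them was 0.970. The same fit called 0% of all tested genes. At an unadjusted p under 0.05, limma picked 1 of the 48, RRM2, which was lower in FLI, and 0.95% of all tested genes were picked on that side. The edgeR quasi-likelihood test and DESeq2 on recovered reads also called 0 of the 48 and picked only RRM2 at an unadjusted p under 0.05. Of the 11897 tested genes edgeR picked 376 and DESeq2 608 at that level, and DESeq2 called 0.0756%. The authors' deposited table, which lists 0.21% of its genes with an adjusted p under 0.05, lists 0 of the 48. No gene of the 48 had all FLI samples below or all FLI samples above all control samples, an arrangement seen for 0.605% and 0.841% of all tested genes.

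The G1/S and replication genes had a lower mean log2 level in FLI for 16 of 24, with a median log2 difference (FLI minus control) of -0.09 and a range from -0.55 to 0.21. The G2/M genes were lower for 14 of 24, with a median of -0.01 and a range from -0.19 to 0.21. Of all tested genes, 49.2% were lower in FLI and the median difference was 0.00. Without FLI 20 alone, 11 of the 24 G1/S and replication genes were lower and their median was 0.02. Without control 10 alone, 21 were lower and the median was -0.17. The data bound these differences closely for most genes: the 95% confidence interval of the log2 difference lay within a 2-fold change in either direction for 22 of 24 G1/S and replication genes and for 24 of 24 G2/M genes, and for 70.0% of all tested genes. The exceptions were CCND1 and CCND2.

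**Figure D2:**
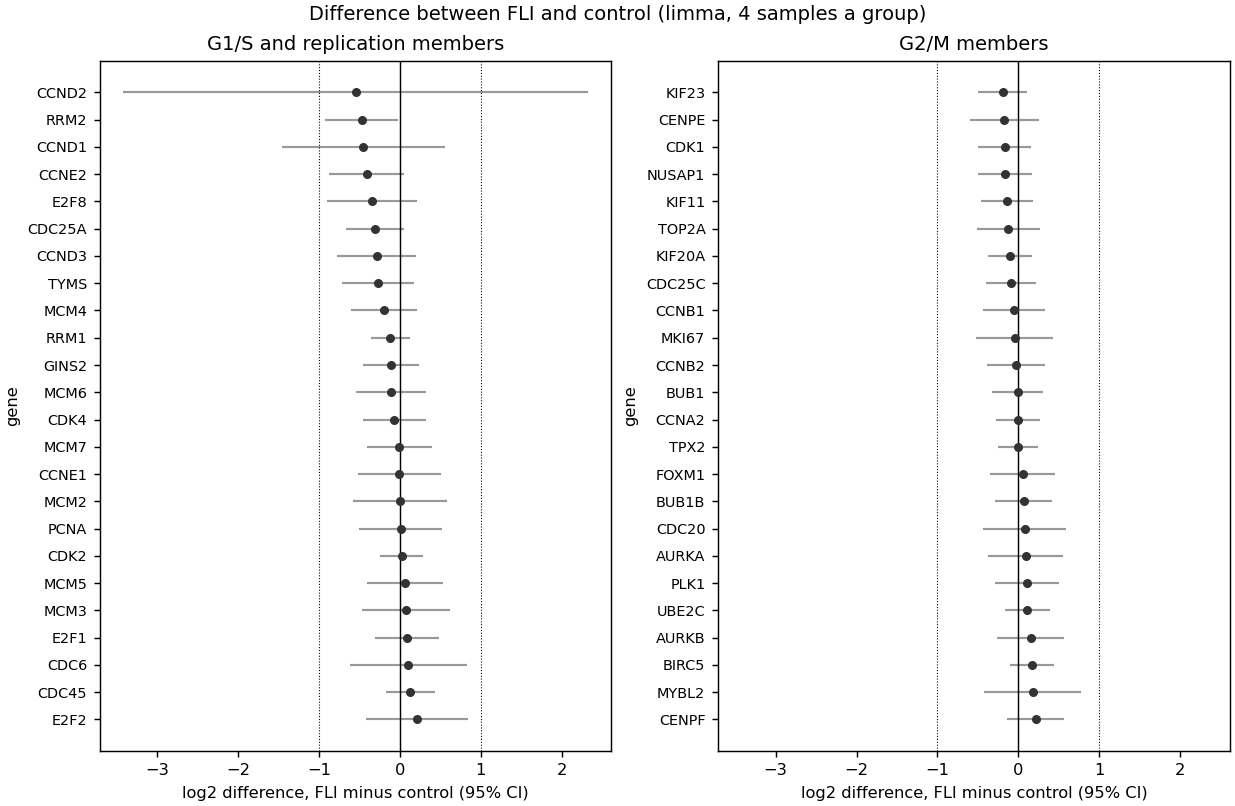
Log2 difference between FLI and control (points) with 95% confidence intervals (bars) from limma for the 24 G1/S and replication genes (left) and the 24 G2/M genes (right), 4 samples a group, with dotted lines at a 2-fold change. The interval of RRM2 (-0.93 to -0.02) is the only one that lies below 0, and those of CCND1 and CCND2 are the only ones that cross a dotted line.

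The D-type cyclins carry growth factor signals to CDK4. CCND2 and CCND1 were the most variable of the 48, with coefficients of variation of 59.5% and 53.4%, against 24.9% for CCND3. CCND2 (chr5:105763459-105787132, ARS-UCD1.2) had 8.78, 73.4, 84.0 and 90.8 CPM in control 10, 20, 3M and 4M and 1.88, 74.9, 101 and 62.6 CPM in FLI 20, 3M, 4M and 50. One sample of each group was thus far below the other 3, and the groups overlapped over almost their whole range. The log2 difference was -0.55, with a 95% confidence interval from -3.43 to 2.33 and an adjusted p in limma of 0.974. The difference was 0.71 without FLI 20, -1.34 without control 10, -0.08 without both, and -0.10 in the edgeR fit of all samples.

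CCND3, another D-type cyclin, had 54.4, 86.3, 51.0 and 60.3 CPM in the controls and 40.8, 63.1, 42.8 and 58.2 CPM in FLI, in the same order of titles. In control 10 and FLI 20, where CCND2 was scarce, CCND3 stayed within 2-fold of its level in the other samples of its group, and its groups overlapped. Its log2 difference of -0.29 was -0.13 without control 20. CCND1 was the scarcest of the D-type cyclins, with 3.12, 3.11, 2.50 and 1.32 CPM in the controls and 1.64, 0.597, 4.15 and 1.37 CPM in FLI. Its highest and its lowest sample were both FLI samples, and its difference of -0.45 was -0.13 without FLI 3M and -0.83 without FLI 4M. CCND1 overlaps LTO1 on the opposite strand, whose mean of 5.25 CPM exceeded that of CCND1, and the sources used here do not give the strand setting of the counting.

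The makeup of the D-type cyclins therefore differed between samples more than between groups. Per kilobase of exon, CCND2 made up 14.3, 47.5, 63.2 and 62.0% of the 3 D-type cyclin transcripts in control 10, 20, 3M and 4M and 4.63, 56.7, 69.9 and 53.8% in FLI 20, 3M, 4M and 50. CCND3 held 79.3% in control 10 and 90.2% in FLI 20. The sum of the 3 was 34.6 CPM per kb in control 10, 22.8 in FLI 20 and from 65.6 to 87.1 in the other samples. CDK4, the kinase that these cyclins activate, had 89.5, 98.7, 136 and 111 CPM in the controls and 83.2, 106, 125 and 99.5 CPM in FLI. Its log2 difference was -0.07 (95% confidence interval -0.46 to 0.32). The CDK4 levels of both groups ran over nearly the same range. CDK4 overlaps TSPAN31, at a mean of 24.7 CPM, on the opposite strand.

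Among the E-type cyclins, CCNE2 (chr14:69448183-69460811) had 31.9, 20.5, 20.1 and 22.9 CPM in control 10, 20, 3M and 4M and 14.2, 15.5, 19.8 and 21.4 CPM in FLI 20, 3M, 4M and 50. Control 10 was the highest of the 8 samples, FLI 20 and FLI 3M were clearly below every control, FLI 4M was just below the lowest control, and FLI 50 lay among the controls. The log2 difference was -0.41 ± 0.20 (SE), with an unadjusted p of 0.0761 and an adjusted p of 0.970 in limma, and it was -0.17 without control 10 and FLI 20. CCNE1, its paralog, was 66.4 ± 16.7 CPM in controls and 65.2 ± 11.8 CPM in FLI (SD, n = 4). Per kilobase CCNE1 exceeded CCNE2 in every sample, by a ratio of 1.93 in control 10 and of 4.64 to 6.52 in the other samples.

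CDC25A (chr22:51693533-51717133), the phosphatase that activates CDK2, had 199.9, 155, 134 and 151 CPM in the controls and 107, 123, 149 and 136 CPM in FLI. Again control 10 was highest and FLI 20 lowest, and FLI 4M and FLI 50 lay within the control range. Its log2 difference was -0.31 ± 0.16 (SE, adjusted p 0.970 in limma), -0.20 without control 10, and -0.11 without control 10 and FLI 20. CDK2 itself was 52.1 ± 4.65 CPM in controls and 52.9 ± 4.21 CPM in FLI, with a log2 difference of 0.02 with a 95% confidence interval from -0.24 to 0.29. CDK2 was among the steadiest of the 48, with a coefficient of variation of 7.86%.

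Of the E2F genes, E2F8 had a lower mean log2 level in FLI, and E2F1 and E2F2 had a higher one. E2F8, a repressor E2F that is itself an E2F target, had 23.4, 14.1, 11.7 and 21.6 CPM in the controls and 12.0, 11.7, 14.1 and 15.8 CPM in FLI, so that control 10 and control 4M stood above all FLI samples and the other controls lay among them. The activator E2F1 was 25.8 ± 4.71 CPM in controls and 27.3 ± 3.88 CPM in FLI. E2F2 was 1.54 ± 0.449 CPM in controls and 1.88 ± 0.731 CPM in FLI. The log2 differences were -0.34, 0.09 and 0.21 for E2F8, E2F1 and E2F2, each with a 95% confidence interval that spans 0. The difference of E2F8 was -0.19 without control 10, -0.52 without control 3M and -0.14 without control 10 and FLI 20.

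For the genes of origin licensing and the replication fork, the group means were nearly equal. The 6 subunits of the MCM2-7 helicase averaged 68.4 ± 12.2 CPM per kb in controls and 68.2 ± 14.8 CPM per kb in FLI (SD, n = 4). By sample the mean was 53.1, 64.9, 81.3 and 74.2 CPM per kb in control 10, 20, 3M and 4M and 48.5, 78.1, 81.0 and 65.1 CPM per kb in FLI 20, 3M, 4M and 50. The subunits were held at similar levels, the highest being 1.57 to 2.36 times the lowest within a sample. Their log2 differences ran from -0.19 for MCM4 to 0.08 for MCM3. MCM2 (chr22:59896021-59912780) had 195, 237, 326 and 305 CPM in the controls and 174, 332, 341 and 233 CPM in FLI. Each group held a low pair and a high pair of MCM2 levels, and the pairs matched between the groups by the last character of the title. MCM7 overlaps AP4M1 on the opposite strand, at a mean of 12.5 CPM, against 286 CPM for MCM7 in controls.

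CDC6, which loads the helicase at origins, was 57.0 ± 23.0 CPM in controls and 58.1 ± 11.9 CPM in FLI. CDC45 and GINS2, which join the helicase when origins fire, had log2 differences of 0.13 and -0.11. PCNA had 133, 182, 213 and 204 CPM in the controls and 122, 210, 218 and 192 CPM in FLI. Its log2 difference of 0.01 had a 95% confidence interval from -0.50 to 0.52, and its sign depended on the scaling (-0.09 with library size alone). CDC6 shares a stretch with WIPF2 on the same strand, at a mean of 16.5 CPM, where reads could have been assigned to either gene.

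The enzymes of nucleotide supply included the gene with the smallest p of the 48. RRM2 (chr11:87488674-87495961) had 459, 631, 567 and 503 CPM in control 10, 20, 3M and 4M and 274, 386, 496 and 424 CPM in FLI 20, 3M, 4M and 50. FLI 20, FLI 3M and FLI 50 were below every control, and FLI 4M lay between control 10 and control 4M. The means were 540.3 ± 75.3 CPM in controls and 395 ± 92.9 CPM in FLI. The log2 difference of -0.47 ± 0.20 (SE) had an unadjusted p of 0.042, and its adjusted p of 0.970 in limma did not pass the threshold. Within the samples whose titles end in 0 it was -0.66, and within those whose titles end in M it was -0.29. The unadjusted p was 0.0185 to 0.109 with 1 sample left out, above 0.05 in 6 of the 8 such fits, and 0.0711 with the replicate block. Leaving out 1 sample at a time gave -0.59 to -0.31, the value nearest to 0 being that without FLI 20, and it was -0.38 without control 10 and FLI 20 together.

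RRM1, the large subunit of the same enzyme, was 181 ± 10.1 CPM in controls and 167 ± 13.4 CPM in FLI, with a log2 difference of -0.12 (95% confidence interval -0.36 to 0.12). RRM2 exceeded RRM1 per kilobase in every sample, by 2.57, 3.62, 3.62 and 2.93 times in control 10, 20, 3M and 4M and by 1.81, 2.63, 3.19 and 2.42 times in FLI 20, 3M, 4M and 50. The ratio was lowest in FLI 20 and the groups overlapped. TYMS, which makes thymidylate, had 177, 117, 105 and 94.7 CPM in the controls and 95.4, 89.7, 99.2 and 112 CPM in FLI. Its log2 difference was -0.28, and control 10 alone stood well above the other 7 samples: without it the value was -0.09.

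**Figure D3:**
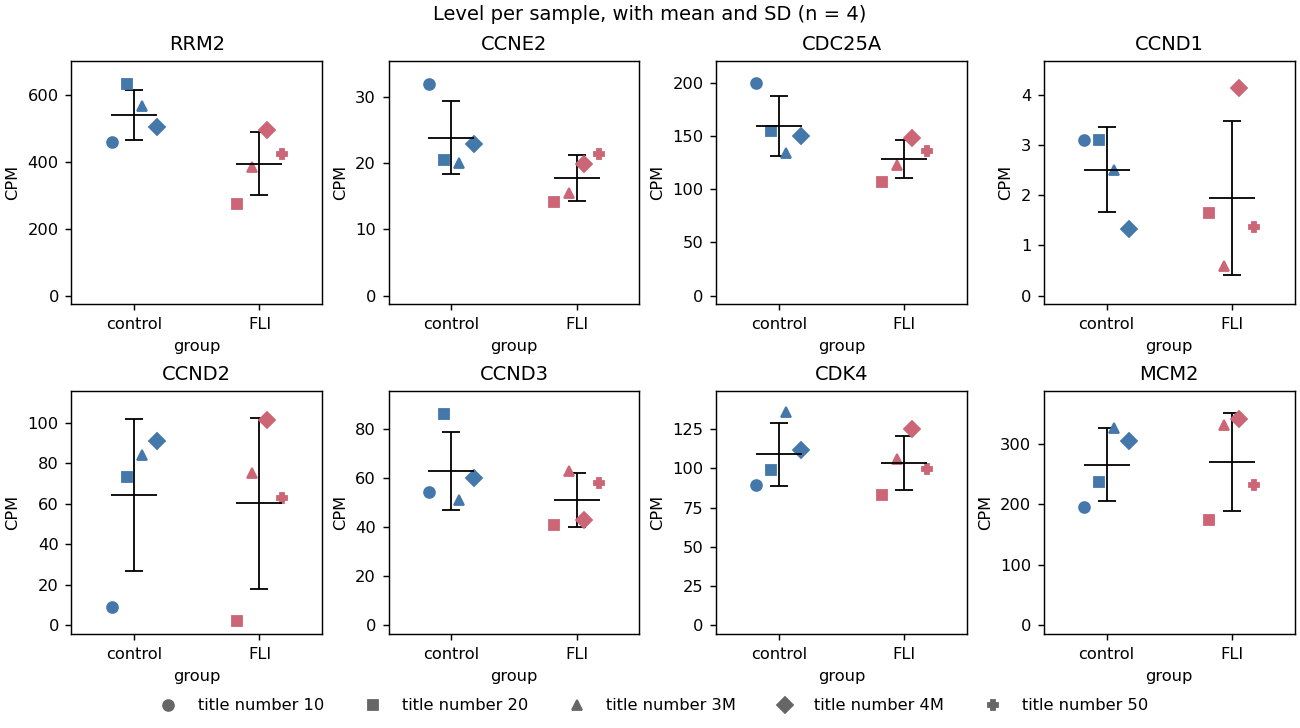
Level (CPM, linear axes) of 8 G1/S and replication genes in the 4 control and 4 FLI samples, with marker shape giving the title number, and the mean and SD of each group (horizontal line and bar, n = 4). RRM2 samples of FLI reach from 274 to 496 CPM and those of control from 459 to 631 CPM, while MCM2 splits by marker shape rather than by group and CCND2 has 1 low sample in each group.

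Of the factors that switch on the mitotic genes, FOXM1 was 23.3 ± 3.79 CPM in controls and 24.3 ± 4.02 CPM in FLI. MYBL2 had 171, 325, 399 and 332 CPM in control 10, 20, 3M and 4M and 277, 384, 383 and 295 CPM in FLI 20, 3M, 4M and 50. Control 10 was the lowest by far, and the ranges of the remaining samples overlapped. The log2 difference of 0.18 turned to -0.08 without control 10.

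CDK1, the kinase of mitotic entry, had 100.005, 69.6, 87.4 and 93.2 CPM in the controls and 69.4, 70.8, 87.6 and 82.0 CPM in FLI. Its groups overlapped, with control 10 highest. Its partner CCNB1 had 144, 156, 197 and 192 CPM in the controls and 133, 177, 202 and 152 CPM in FLI. Again the samples 3M and 4M of both groups were higher than the rest. The log2 differences were -0.17 for CDK1 (-0.10 without control 10, -0.28 without control 20) and -0.06 for CCNB1. CCNA2, the cyclin of S phase and G2, was 97.0 ± 7.49 CPM in controls and 96.8 ± 9.72 CPM in FLI, a difference of 0.00 with a 95% confidence interval from -0.27 to 0.26. CCNB2 and the phosphatase CDC25C, which activates CDK1, had differences of -0.03 and -0.09.

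The Aurora kinases and PLK1 had slightly higher means in FLI, with overlapping samples. AURKA, the centrosomal Aurora kinase, was 108 ± 30.1 CPM in controls and 111 ± 9.01 CPM in FLI. AURKB, the kinase of the chromosomal passenger complex, was 59.6 ± 11.7 and 65.8 ± 9.89 CPM, and PLK1, which acts throughout mitosis, was 123 ± 20.5 and 133 ± 24.7 CPM. BIRC5 (survivin), a partner of AURKB, had 107, 128, 140 and 135 CPM in the controls and 149.98, 148, 132 and 141 CPM in FLI. FLI 20, FLI 3M and FLI 50 exceeded every control, FLI 50 by little, and FLI 4M did not. The log2 difference of 0.17 had an adjusted p in limma of 0.970. It was 0.32 within titles ending in 0 and 0.02 within titles ending in M, 0.09 without control 10, and 0.06 without control 10 and FLI 20.

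The checkpoint kinases BUB1 and BUB1B, which delay anaphase until kinetochores are attached, had log2 differences of -0.01 and 0.07. CDC20 and UBE2C, which act with the anaphase-promoting complex to degrade cyclins, had differences of 0.08 and 0.11. For CDC20 the levels were 181 ± 52.8 CPM in controls and 187 ± 31.2 CPM in FLI. All 4 of these genes had confidence intervals within a 2-fold change. UBE2C overlaps DNTTIP1 on the same strand, at a mean of 14.9 CPM against 164 CPM and more for UBE2C.

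Among the motors and the chromosome proteins, KIF23, a kinesin of the central spindle, had the smallest p of the G2/M genes. It had 104, 102, 90.3 and 124 CPM in the controls and 102, 79.6, 89.0 and 96.8 CPM in FLI, with a log2 difference of -0.19 with a 95% confidence interval from -0.50 to 0.11. FLI 3M and FLI 4M were below every control and the other samples overlapped. The difference was -0.11 without control 4M. NUSAP1, which bundles spindle microtubules, had 62.6, 44.4, 45.5 and 49.4 CPM in the controls and 47.8, 38.2, 44.4 and 48.2 CPM in FLI, a difference of -0.17 that was -0.06 without control 10. CENPF, a kinetochore protein, had 109.9, 102, 109.6 and 136 CPM in the controls and 166, 111, 129 and 128 CPM in FLI. FLI 20 had the highest CENPF level of all samples, while control 4M exceeded the other FLI samples. The difference of 0.21 was 0.10 without FLI 20, 0.09 without control 10 and FLI 20, and -0.03 among the samples with titles ending in M.

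The kinesins KIF11, which separates the spindle poles, and KIF20A, which acts in cytokinesis, had differences of -0.14 and -0.10, and the kinetochore motor CENPE one of -0.17. TPX2 was 172 ± 14.5 CPM in controls and 172 ± 11.3 CPM in FLI. MKI67, the gene of the proliferation marker Ki-67, was 358 ± 69.8 CPM in controls and 349 ± 79.5 CPM in FLI. TOP2A, the topoisomerase that untangles sister chromatids, was 297 ± 53.5 and 271 ± 40.2 CPM. Neither MKI67 nor TOP2A differed beyond the spread of its samples, and their 95% confidence intervals ran from -0.52 to 0.43 and from -0.51 to 0.26. NUSAP1 overlaps OIP5 (16.2 CPM) and KIF20A overlaps CDC23 (38.8 CPM), both on the opposite strand.

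Other genes of the same processes were examined as lists. Of 56 other DNA replication genes, 35 were lower in FLI with a median log2 difference of -0.07, and limma and edgeR called 0. CLSPN, a checkpoint mediator at the fork, had 100.1, 72.9, 61.9 and 92.7 CPM in the controls and 46.4, 53.6, 70.2 and 72.4 CPM in FLI, a difference of -0.43. GMNN (geminin), which prevents a second round of licensing, was 79.1 ± 5.49 CPM in controls and 66.7 ± 10.2 CPM in FLI, a difference of -0.26. In both genes FLI 20 was the lowest sample, and without control 10 and FLI 20 the differences were -0.20 and -0.13. At an unadjusted p under 0.05, limma and edgeR picked 0 of the 56.

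Of 84 other mitosis genes, 43 were lower in FLI with a median of 0.00, and limma and edgeR called 0 and picked 0 at an unadjusted p under 0.05, while DESeq2 called 0 and picked 1 (608 of all 11897 tested genes). NDC80, the kinetochore protein that grips microtubules, had 38.5, 30.8, 30.5 and 32.9 CPM in the controls and 27.1, 25.5, 27.6 and 29.7 CPM in FLI. It was the 1 gene of these 84 whose FLI samples all lay below all controls, an arrangement seen for 0.605% of all tested genes. The NDC80 difference of -0.26 had an unadjusted p of 0.0666 and an adjusted p of 0.970 in limma. NCAPG, a condensin subunit, was 124 ± 6.34 CPM in controls and 101 ± 19.8 CPM in FLI, a difference of -0.32 that was -0.20 without control 10 and FLI 20.

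Of 27 inhibitors of cyclin-dependent kinases, RB family genes and p53 targets, 8 were lower and 19 higher in FLI, with a median of 0.11, and limma, edgeR and DESeq2 called 0. CDKN1C (p57), an inhibitor of G1 kinases that accumulates in differentiating trophoblast of mice, had 20.9, 35.9, 3.53 and 1.98 CPM in control 10, 20, 3M and 4M and 67.1, 42.9, 7.998 and 43.2 CPM in FLI 20, 3M, 4M and 50. FLI 20, FLI 3M and FLI 50 exceeded every control, and FLI 4M lay below control 10 and control 20. Its log2 difference of 1.78 ± 0.97 (SE) had an adjusted p of 0.970 in limma, and it was 0.96 among titles ending in 0 and 2.60 among titles ending in M, and 1.14 without control 4M. CDKN1A (p21), a p53 target that inhibits the same kinases, had 6.32, 3.87, 3.16 and 4.84 CPM in the controls and 32.6, 5.39, 2.81 and 7.84 CPM in FLI. FLI 20 was the only sample with a CDKN1A level far from the rest, and the log2 difference of 0.80 was 0.15 without it. SESN2, a stress gene, had the smallest p of this list, with 36.1 ± 10.6 CPM in controls and 59.2 ± 16.9 CPM in FLI. Its difference of 0.71 had an unadjusted p of 0.0362 and an adjusted p of 0.970 in limma. It was 0.48 without control 10, 0.32 without control 10 and FLI 20, 1.25 within titles ending in 0 and 0.18 within titles ending in M.

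Of 15 other E2F, MYC and CDK-activating factors, 11 were lower in FLI, with a median of -0.11, and limma and edgeR called 0. CDK6, the other kinase of D-type cyclins, had 17.4, 15.6, 12.7 and 16.4 CPM in the controls and 5.25, 9.17, 13.8 and 12.5 CPM in FLI. FLI 20, FLI 3M and FLI 50 were below every control and FLI 4M was not. Its log2 difference was -0.66, the most negative of this list, with an unadjusted p of 0.0489 and an adjusted p of 0.970 in limma. It was -0.39 without FLI 20 and -0.34 without control 10 and FLI 20. E2F4, an E2F of quiescent cells, had a log2 difference of -0.22, which was -0.12 without FLI 20.

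The last character of the title, 0 or M, is not explained by any label, and the comparison by this character was chosen after the data were seen. Control 3M, control 4M, FLI 3M and FLI 4M together had higher levels than control 10, control 20, FLI 20 and FLI 50, with no overlap, for 16 of the 48 genes. These were 9 of 24 G1/S and replication genes (37.5%) and 7 of 24 G2/M genes (29.2%), while 9.47% of all tested genes had this arrangement. The share was 19.6% for the other DNA replication genes, 8.33% for the other mitosis genes, 33.3% for the other E2F, MYC and CDK-activating factors and 3.70% for the inhibitors, RB family genes and p53 targets. The opposite arrangement, all M samples below the rest, was seen for 0 of the 48 and 8.99% of all tested genes.

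The G1/S and replication genes among the 16 were CCND2, CDK4, CDC6, GINS2, MCM2, MCM3, MCM4, MCM5 and PCNA. MCM2 was 326 ± 15.5 CPM in the M samples and 210 ± 30.2 CPM in the others (SD, n = 4). CDC6 was 71.3 ± 5.81 against 43.8 ± 11.6 CPM, and PCNA ranged from 204 to 218 CPM against 122 to 192 CPM. The mean of MCM2-7 was 74.2 to 81.3 CPM per kb in the M samples and 48.5 to 65.1 in the others. The G2/M genes among the 16 were CDC20, PLK1, CCNB1, AURKA, FOXM1, BUB1 and MYBL2. CDC20 was 219 ± 12.4 against 149 ± 19.0 CPM, PLK1 147 ± 9.61 against 109 ± 7.17 CPM and CCNB1 ranged from 177 to 202 against 133 to 156 CPM.

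Over the 16 genes the log2 difference (M minus 0) ran from 0.27 for BUB1 to 2.29 for CCND2. In a limma fit with the treatment as a second term, 0 of the 48 genes passed the threshold, the smallest adjusted p being 0.0905 for MCM2, and 0.00841% of all tested genes passed. At an unadjusted p under 0.05 the fit picked 16 of the 48 and 2854 of the 11897 tested genes. Counted by mean log2 level alone, 34 of the 48 were higher in the M samples and 14 lower. Of all tested genes, 53.8% were higher in the M samples. TYMS and TOP2A were lower in the M samples on average, with differences of -0.33 and -0.26, and CDK2, KIF11 and CDC25C were close to 0.

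**Figure D4:**
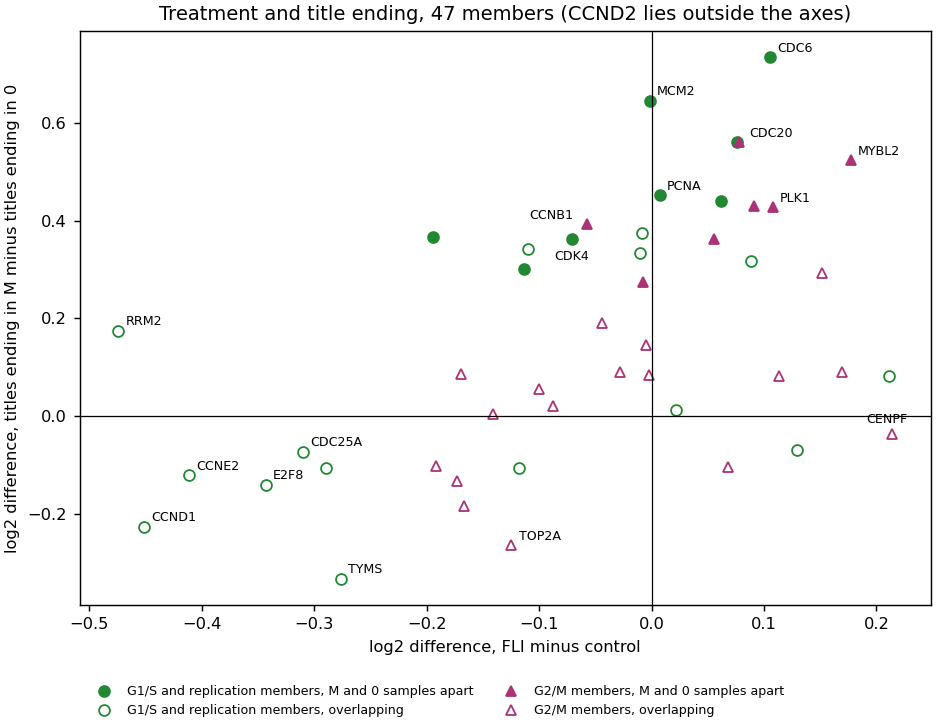
Log2 difference between samples with titles ending in M and in 0 (vertical axis) against the log2 difference between FLI and control (horizontal axis) for 47 of the 48 genes, CCND2 (-0.55 and 2.29) being outside the axes. Filled symbols are genes whose 4 M samples all exceed the other 4, and they lie at 0.27 or more on the vertical axis and between -0.19 and 0.18 on the horizontal one, while RRM2, CCNE2 and CDC25A lie to the left and overlap by title ending.

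Hypoblast markers divided the samples the same way in the opposite direction. Of 15 such genes in the table, 14 had a lower mean log2 level in the M samples, where 53.8% of all tested genes were higher. All M samples lay below the rest for 10 of the 15, and for 8.99% of all tested genes. The summed hypoblast level was 5248 to 8957 CPM in the M samples and 15791 to 49252 CPM in the others, and none was at 0 in any sample. Of the trophectoderm markers, 3 of 16 were lower in all M samples and 1 was higher in all of them. Of 4 tested blood and leukocyte markers, 1 was lower in all M samples. The part of hypoblast content in the levels of the 16 genes was not tested.

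The genes did not all vary together between samples. Over the 8 samples the 6 MCM subunits had a median pairwise correlation of 0.87. CCNE2, CDC25A, E2F8 and TYMS had one of 0.82, but they were grouped after their values were seen, so a high value was built in. Between these sets the median was -0.19, which the same grouping affects. Over all pairs of the 24 G1/S and replication genes the median was 0.14, and over those of the 24 G2/M genes 0.12. These values describe 8 libraries that the genes share. Control 10 shows the contrast: it was the highest sample for CCNE2, CDC25A, E2F8, RRM1 and TYMS and the lowest for CCNE1, E2F1, CDC6 and MCM7. For 16 of the 48 genes the lowest samples were control 10 and FLI 20, and the share of all tested genes with this arrangement was not counted. The mean log2 level of the G2/M genes exceeded that of the G1/S and replication genes by 0.72, 0.44, 0.45 and 0.62 in control 10, 20, 3M and 4M and by 1.003, 0.57, 0.55 and 0.60 in FLI 20, 3M, 4M and 50, so the widest gap was that of FLI 20.

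Markers of cell types were compared between the treatment groups by their means and sums, and the sums overlapped between the groups in every list. Of all tested genes, 49.2% were lower on average in FLI. Of 12 markers of trophoblast secretion, 12 were higher on average in FLI, with a summed level of 7484 to 41432 CPM in controls and 19423 to 72987 CPM in FLI. Of 11 tested epiblast markers 9 were lower, with a sum over the list of 325 to 737 CPM in controls and 290 to 482 CPM in FLI, and NODAL and PRDM14 were at 0 in 2 samples each. Of 15 hypoblast markers 12 were lower, with a sum of 5248 to 49252 CPM in controls and 8625 to 21156 CPM in FLI. Trophectoderm markers were higher in FLI for 15 of 16, with a sum of 14890 to 23896 CPM in controls and 18923 to 26215 CPM in FLI. Mesoderm markers were scarcer, with 5 of 5 tested genes lower and a sum over the list of 17.6 to 146 CPM in controls and 14.0 to 32.7 CPM in FLI, and TBXT, EOMES, GSC and COL3A1 were at 0 in 1 to 3 samples. Blood and leukocyte markers summed to 14.7 to 30.7 CPM in controls and 11.7 to 103 CPM in FLI, the highest being FLI 20 with 66.6 CPM of ALAS2, an enzyme of red cell precursors. Endometrium markers summed to 1.35 to 5.23 CPM. All FLI samples exceeded all controls for 1 marker of trophoblast secretion and for 0.841% of all tested genes. Limma and edgeR called 0 genes of any of these lists. DESeq2 called 1 marker of trophoblast secretion and 0.0756% of all tested genes. At an adjusted p under 0.05 the authors' deposited table lists 4 markers of trophoblast secretion, 1 mesoderm marker and 0.21% of its genes. At an unadjusted p under 0.05 limma picked 5 of the 12 markers of trophoblast secretion and 2.84% of all tested genes. The part of cell type content in the levels of RRM2, CCNE2 and CDC25A was not tested.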

How the data were processed

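Per the labels' protocols, RNA was extracted with trizol and chloroform, and the libraries were stranded and enriched for poly-A. The build ARS-UCD1.2 and the tools HISAT2, featureCounts, edgeR and FastQC are named in the submitters' processing notes; versions, strand setting and the handling of multiply placed reads were not given in the sources used here. In each sample the deposited signal is TMM-scaled CPM, which the authors computed: 100% of the values were whole multiples of the worth of 1 read within 0.001. The authors' deposited table also holds, per the file headers, a p-value and adjusted p-value, a likelihood ratio score, a log2 fold change and a mean log2 level. Exon lengths and coordinates are those of the deposited table.

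Genes with at least 1 CPM in at least 4 samples (11897) were tested with limma 3.58.1 (eBayes with trend, R 4.3.3) on log2(CPM + 0.5), two-sided, with Benjamini-Hochberg adjustment. Log2 differences on this scale understate the change of low genes. The alternatives were edgeR 4.0.16 and DESeq2 1.42.0 on recovered reads, other pseudocounts, scalings and filters, and subsets of samples. The comparison between title endings, the fit with the ending as a term, and the fits without control 10 and FLI 20 together, were chosen after seeing the data. The members and the 13 gene lists (338 symbols, 311 in the table) were chosen with earlier results of these data known. Named genes were the 5 of smallest p and the 2 of highest level per kb in each subgroup, the D-type cyclins with CDK4, CDKN1A, CDKN1C, and the 2 of smallest p of each other cell cycle list. Other members are covered by values or counts, and CCNA2 and MYBL2 were placed with the G2/M genes. Of the fits, only the main limma fit was tested on simulated data, and only with changes of 2-fold or more. For the titles 20, 3M and 4M shared by the groups, deviations from group means correlated at 0.318, 0.150 and 0.295, so these were used as a replicate block, while control 3M with FLI 4M gave 0.170 and control 4M with FLI 3M gave -0.0354. Samples of equal number always share the last character of the title. XIST was not analysed here, and the values of 1 marker gene are not reported here.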

Additional observations from a re-analysis of the deposited data

Results flagged for a closer look

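In 4 of 96 groups examined (48 genes, each in the control and the FLI samples) 1 sample lay far from the other 3, relative to the range of its group, where chance would flag about 1 in 20 groups. CDK2 was 59.2 CPM in FLI 20 and 50.4 to 51.1 CPM in FLI 3M, 4M and 50. E2F2 was 2.97 CPM in FLI 20 against 1.40 to 1.65 CPM. CCNA2 was 82.3 CPM in FLI 20 against 101 to 103 CPM. CDC45 was 34.7 CPM in control 4M against 40.4 to 41.0 CPM in the other controls.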

How the results depend on the processing

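The count of 0 members called held under every alternative run (pseudocounts 0.1 and 1, no filter, both scalings, edgeR, DESeq2, each sample left out, the replicate block, each title ending alone or as a term, and without control 10 and FLI 20). Over all tested genes the count was 0 in each of these except DESeq2, which called 9. Leaving out 1 sample at a time moved the median difference from -0.17 to 0.02 for the G1/S and replication genes (11 to 21 lower in FLI) and from -0.05 to 0.05 for the G2/M genes (10 to 16 lower). With the replicate block on 6 samples the medians were -0.17 (20 lower) and -0.05 (15 lower). Library size alone moved the median of all genes from 0.00 to -0.09 and put 64.5% of them lower in FLI, with medians of -0.19 and -0.11. Moving CCNA2 and MYBL2 to the G1/S genes gave -0.04 and -0.02. Over 26 named genes 527 of 546 alternatives kept the direction and 19 reversed it. These were PCNA (-0.093 with library size alone, -0.00037 with DESeq2 size factors, -0.17 with the block or the same 6 samples unblocked, -0.021 among titles ending in 0, and -0.14 to 0.20 with 1 sample left out), MYBL2 (-0.026 with the block or those 6 samples, -0.081 to 0.32 with 1 left out), CENPF (-0.029) and CDKN1A (-0.0022) among titles ending in M, and, with 1 sample left out, CCNB1 (-0.16 to 0.042), CCND2 (-1.34 to 0.71) and CDK4 (-0.17 to 0.041). The cause was not tested. Between title endings 1 gene was called, 3 without control 10 and FLI 20, 0 to 45 with 1 sample left out (45 without control 10), and 0 members in each. The number of members higher in all M samples was 16, 13 with library size alone, and 16 to 18 with fewer samples, where it can only stay or grow. With 4 samples a group, small differences could be missed for any of the genes, and large ones for genes as variable as CCND2.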
